A study of Mus musculus with 4 samples.

Results

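The Mbnl, Celf and neuronal Elavl proteins are 3 families of RNA-binding proteins, and their transcripts were followed here in mouse cortex with and without a functional *Qk* gene. The members were taken by gene symbol: *Mbnl1*, *Mbnl2* and *Mbnl3*, *Celf1*, *Celf2*, *Celf3* and *Celf4*, and *Elavl2*, *Elavl3* and *Elavl4*. All 10 were found among 23038 genes, together with 69 of the 38240 splicing events that were counted, which are the events lying in these 10 genes. The samples were cortices of mouse embryos at embryonic stage E14.5, 2 from control embryos and 2 from *Qk cKO* embryos. The control embryos, labelled wild type, were *Qk* fl/fl littermates without Cre, and the *Qk cKO* embryos were *Qk* fl/fl with *Nestin*-Cre. Both groups therefore carry the floxed *Qk* allele. Cre driven by *Nestin* acts in neural progenitors and reaches the cells born from them, while blood vessels, meninges and microglia keep an intact gene. Qki is itself an RNA-binding protein and a splicing regulator of neural stem cells.

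Mbnl proteins bind YGCY elements through zinc fingers and regulate alternative splicing and the place of mRNAs in the cell. Sequestration of Mbnl by repeat RNA is the central event of myotonic dystrophy. Celf proteins bind GU-rich elements in introns and in 3′ UTRs, and act on splicing, decay and translation, often on the same exons as Mbnl and in the opposite direction. The neuronal Elavl proteins, also called HuB, HuC and HuD, bind AU- and U-rich elements and regulate mRNA stability and splicing in neurons. *Elavl2* encodes HuB, *Elavl3* HuC and *Elavl4* HuD. Members of all 3 families have alternative exons in their own transcripts, many of them conserved between paralogs.

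The comparison of control with *Qk cKO* asked whether loss of Qki altered the levels or the splicing of these transcripts. Levels hardly differed, and none of the 10 members passed the test. A short coding exon of *Mbnl2* stood out in splicing: its inclusion, estimated from junction tags, was 0.197 in control and 0.837 in *Qk cKO*. Smaller differences were called in *Celf1*, *Celf2*, *Celf3* and *Elavl2*. None of the 5 passed a test that takes the spread between replicates into account.

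The exons on which these results turn are given below with 20 bases of the neighbouring exons in lower case on each side and the alternative exon in capitals, 5′ to 3′ on the coding strand. They were read from GENCODE transcripts of the GRCm38 (mm10) build. The *Mbnl2* exon is the called one, the *Mbnl1* exon is its counterpart in the paralog, and the *Elavl2* and *Elavl4* exons are a tested pair of equal length.
*Mbnl2* 36-nt exon, chr14:120403336-120403371, plus strand: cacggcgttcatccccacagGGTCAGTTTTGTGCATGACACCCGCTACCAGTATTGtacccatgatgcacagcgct
*Mbnl1* 36-nt exon, chr3:60621423-60621458, plus strand: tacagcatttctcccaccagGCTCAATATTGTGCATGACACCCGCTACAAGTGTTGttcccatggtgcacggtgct
*Elavl2* 39-nt exon, chr4:91254141-91254179, minus strand: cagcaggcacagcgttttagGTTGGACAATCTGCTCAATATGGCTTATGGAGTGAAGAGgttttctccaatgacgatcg
*Elavl4* 39-nt exon, chr4:110209740-110209778, minus strand: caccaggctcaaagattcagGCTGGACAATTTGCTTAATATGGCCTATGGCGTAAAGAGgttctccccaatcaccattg
The 36-nt exons of *Mbnl1* and *Mbnl2* were identical at 31 of 36 bases (86.1%), and the 39-nt exons of *Elavl2* and *Elavl4* at 33 of 39 bases (84.6%). Counted from the 5′ end of the exon and written from *Mbnl1* to *Mbnl2*, the differences were C2G, A6G, A8T, A29C and G33A. All 4 exons lay wholly within coding sequence, and their lengths are multiples of 3, so that inclusion or skipping keeps the reading frame.

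Depth was even, from 37942046 to 42994832 tags on genes in the 4 samples. A tag is a read or read pair as the counting program assigned it, and RPKM is the tag number scaled to exon length in kilobases and to the sample's total. The deletion of *Qk* exon 2 was visible in both *Qk cKO* samples: per 100 tags on the junction of exons 3 and 4, the junction of exons 2 and 3 had 7.02 and 8.19 tags in *Qk cKO*, and 111 and 129 in the controls. The level of *Qk* over its whole length was higher in *Qk cKO*, at 32.5 and 34.2 RPKM against 21.1 and 21.7 in control (log2 fold change 0.65 ± 0.07 SE, edgeR adjusted p = 2.5e-05), so the total level does not report the deletion. *Xist*, transcribed from the inactive X chromosome of females, had 42352 and 49698 tags in replicate 1 of control and of *Qk cKO* and 18 and 7 tags in replicate 2. Each group thus held a female and a male embryo.

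The members spanned a wide range of levels. The Celf genes summed to 183 ± 10.4 RPKM in control and 180 ± 3.19 RPKM in *Qk cKO* (SD, n = 2). The neuronal Elavl genes summed to 139 ± 3.97 RPKM in control and 140 ± 1.81 RPKM in *Qk cKO*. The Mbnl genes summed to only 5.15 ± 0.101 RPKM in control and 5.45 ± 0.319 RPKM in *Qk cKO*, so that in control the Celf sum was 35.6 times and the neuronal Elavl sum 26.9 times the Mbnl sum. In mean RPKM over the 4 samples the order was *Elavl3* (70.0), *Celf3* (65.1), *Celf2* (46.9), *Elavl4* (39.1), *Celf1* (37.3), *Celf4* (32.4), *Elavl2* (30.2), *Mbnl1* (2.43), *Mbnl2* (2.34) and *Mbnl3* (0.534). Neighbours whose ranges over the samples overlapped were *Elavl3* with *Celf3*, *Elavl4* with *Celf1*, *Celf4* with *Elavl2*, and *Mbnl1* with *Mbnl2*. The other neighbours did not overlap.

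**Figure D1:**
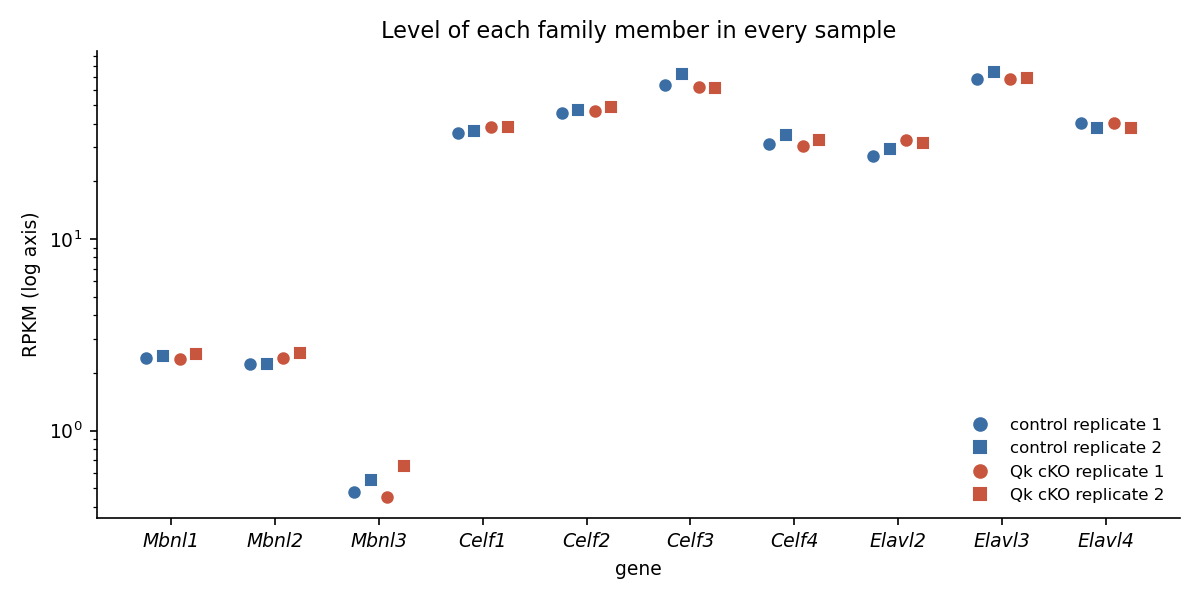
RPKM of the 10 members on a logarithmic axis, with control samples in blue, *Qk cKO* samples in red, circles for replicate 1 and squares for replicate 2. The Mbnl genes lie between 0.452 and 2.53 RPKM, and every Celf and neuronal Elavl gene lies above 27 RPKM, with the 2 genotypes close together for each gene.

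*Mbnl1*, which with *Mbnl2* is a broadly expressed member of its family, had 2.39 and 2.45 RPKM in control and 2.38 and 2.50 RPKM in *Qk cKO*. *Mbnl2*, the member most used in brain, had 2.21 and 2.23 RPKM in control and 2.40 and 2.53 RPKM in *Qk cKO*. *Mbnl3*, an X-linked member found mainly in embryonic and placental tissue, had 0.480 and 0.549 RPKM in control and 0.452 and 0.655 RPKM in *Qk cKO*. The genotypes overlapped for *Mbnl1* and *Mbnl3*, and both *Qk cKO* values of *Mbnl2* were above both control values. The log2 fold changes of *Qk cKO* over control were 0.02 ± 0.11 for *Mbnl1*, 0.16 ± 0.11 for *Mbnl2* and 0.12 ± 0.19 for *Mbnl3* (SE of the edgeR fit). For *Mbnl3* the male sample was the higher of the pair in each group, and the part of sex in its values was not tested. *Mbnl3* rested on 169 to 234 tags a sample, against 694 to 851 for *Mbnl1* and *Mbnl2*.

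*Celf1*, a ubiquitous factor in mRNA decay and splicing, had 35.6 and 36.5 RPKM in control and 38.5 and 38.5 RPKM in *Qk cKO*. *Celf2*, a splicing regulator of heart and brain, had 45.4 and 46.8 RPKM in control and 46.4 and 49.1 RPKM in *Qk cKO*. *Celf3*, a member restricted to the nervous system, had 63.7 and 72.6 RPKM in control and 62.3 and 61.7 RPKM in *Qk cKO*. *Celf1* values were higher and *Celf3* values lower in both *Qk cKO* samples than in both control samples, while *Celf2* overlapped. *Celf4*, a neuronal regulator of mRNAs of synaptic proteins, also overlapped, at 31.4 and 34.9 RPKM in control and 30.4 and 32.8 RPKM in *Qk cKO*. The log2 fold changes were 0.11 ± 0.07 for *Celf1*, 0.06 ± 0.07 for *Celf2*, -0.12 ± 0.07 for *Celf3* and -0.06 ± 0.06 for *Celf4*.

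*Elavl2* had 27.1 and 29.4 RPKM in control and 32.7 and 31.6 RPKM in *Qk cKO*. Its groups did not overlap, and with a log2 fold change of 0.20 ± 0.06 it had the smallest p of the 10 members, 0.0026 in the edgeR test, which became 0.212 after adjustment over all genes. *Elavl3* had 68.5 and 74.3 RPKM in control and 68.3 and 68.8 RPKM in *Qk cKO*. *Elavl4* had 40.3 and 37.9 RPKM in control and 40.1 and 38.1 RPKM in *Qk cKO*. Both overlapped between the groups, with log2 fold changes of -0.05 ± 0.08 for *Elavl3* and 0.01 ± 0.06 for *Elavl4*.

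**Figure D2:**
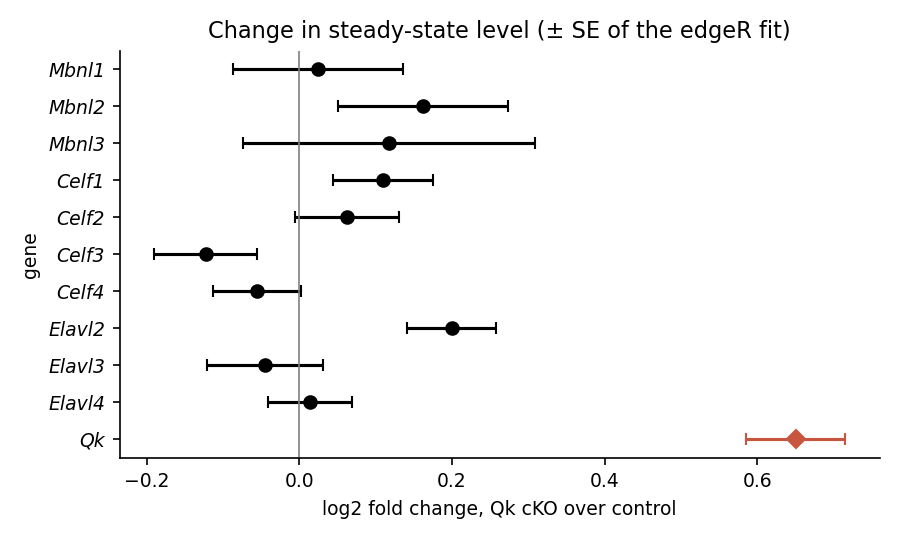
Log2 fold change of *Qk cKO* over control for each member, with bars of 1 SE from the edgeR fit, and *Qk* in red for scale. All members lie between -0.12 and 0.20, and *Qk* lies at 0.65.

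No member passed the test for a changed steady-state level in edgeR's quasi-likelihood test (p below 0.01 and adjusted p below 0.1), beside 0.584% of the 18834 genes tested. At an unadjusted p under 0.05 the count was 1 of 10, *Elavl2*, beside 8.76% of all genes tested, and DESeq2 and edgeR's exact test also called 0. The groups did not overlap in RPKM for 4 of the 10 members, beside 36.9% of all genes tested. The median log2 fold change was 0.04 over the members and 0.00 over all genes. With 2 samples in each group the test cannot show small changes. The sign of the change depended on 1 sample for *Celf4*, *Elavl3*, *Elavl4*, *Mbnl1* and *Mbnl3*: without control replicate 2 the log2 fold change became 0.02 for *Celf4*, 0.01 for *Elavl3* and -0.04 for *Elavl4*. Without *Qk cKO* replicate 1 it was -0.04 for *Elavl4*. Without *Qk cKO* replicate 2 it was -0.16 for *Mbnl3* and near 0 for *Mbnl1*.

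The remaining genes of the families were no members and did not pass the test either. *Celf5* had 24.9 and 28.8 RPKM in control and 23.1 and 25.3 RPKM in *Qk cKO*. *Celf6* was lower, at 10.8 and 11.7 RPKM in control and 11.0 and 9.60 RPKM in *Qk cKO*. *Elavl1*, which encodes the ubiquitous HuR, had 18.1 and 18.5 RPKM in control and 18.5 and 17.4 RPKM in *Qk cKO*. All 3 overlapped between the groups.

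Of the 69 splicing events of the members, 39 had a coverage of at least 20 and were tested. Coverage is the smallest of the marginal sums of junction tags by isoform and by genotype. *Celf3* had 9 tested events, *Celf4* 8, *Celf2* 6, *Celf1* and *Elavl2* 4 each, *Elavl4* and *Mbnl2* 3 each, *Mbnl1* and *Elavl3* 1 each and *Mbnl3* none. Some of these events share junctions and are not independent. Inclusion is the share of junction tags on the first isoform, after tags are averaged over the junctions of an isoform that has more than 1. For a cassette exon the joining junctions are thus averaged and set against the skipping junction. Δ*I* is the control inclusion less the *Qk cKO* inclusion, so that a negative Δ*I* is higher inclusion in *Qk cKO*. Fisher's exact test on tags summed over replicates called 5 of the 39 (12.8%), beside 7.50% of the 11500 events tested in all genes. All 5 had higher inclusion in *Qk cKO*. What is counted as included is an exon in *Mbnl2* and *Elavl2*, the nearer acceptor in *Celf1* and an intron in *Celf2* and *Celf3*. The shared sign is therefore not a shared kind of change, and the share of all called events with that sign is not given. In 22 of the 39 the groups did not overlap in inclusion, beside 37.9% of all tested events. The median size of Δ*I* was 0.033 over the 39 member events and 0.0256 over all tested events. Fisher's test treats each tag as independent. The edgeR interaction test, which uses the spread between replicates, called 0 of the 39, beside 0.557% of all tested events. The lowest unadjusted p of the edgeR interaction test among the 39 were 0.0016 (*Mbnl2* exon), 0.0060 (*Celf3* event) and 0.019 (*Celf1* event). Their adjusted p were 0.146, 0.683 and 0.631, and the events are described below.

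**Figure D3:**
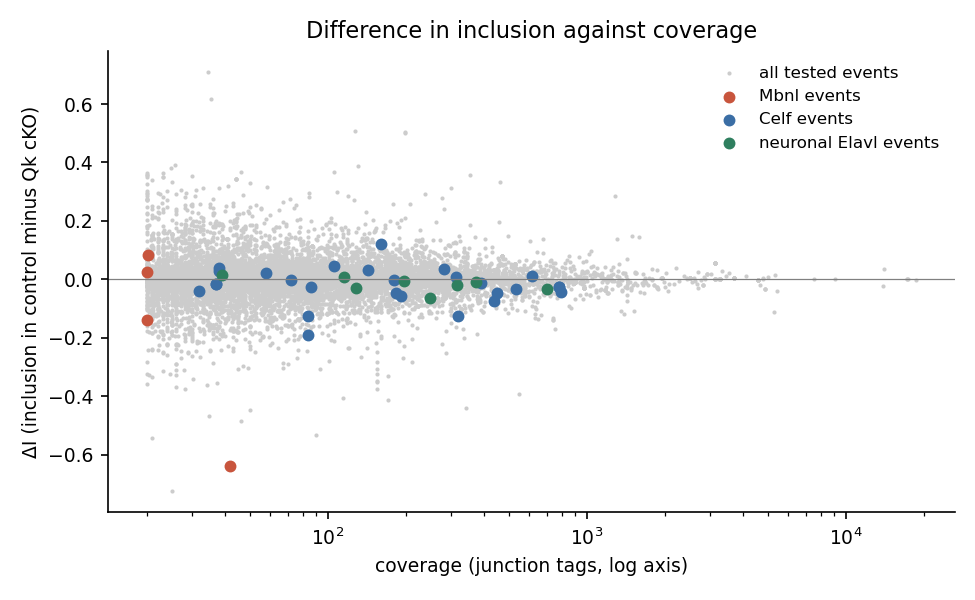
Δ*I* of the 11500 tested events against coverage on a logarithmic axis, with all events in grey, Mbnl events in red, Celf events in blue and neuronal Elavl events in green. A single Mbnl event, the 36-nt exon of *Mbnl2* at -0.640, lies far below the other member events.

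The 36-nt exon of *Mbnl2* had the largest Δ*I* of the member events and the third largest in size of all 11500 tested. It lies between a 154-nt exon at chr14:120396451-120396604 and a 95-nt exon at chr14:120404638-120404732, and it is coding in both annotated transcripts that hold it. In control replicate 1, 3.08 and 2.08 tags joined it to its neighbours and 22.9 tags skipped it. In control replicate 2 there were 4 and 8 joining tags and 12 skipping tags. In *Qk cKO* replicate 1 there were 16 and 19 joining tags against 5 skipping tags, and in *Qk cKO* replicate 2 there were 16 and 21 against 2. Skipping was thus the major form in both controls and the minor form in both *Qk cKO* samples.

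**Figure D4:**
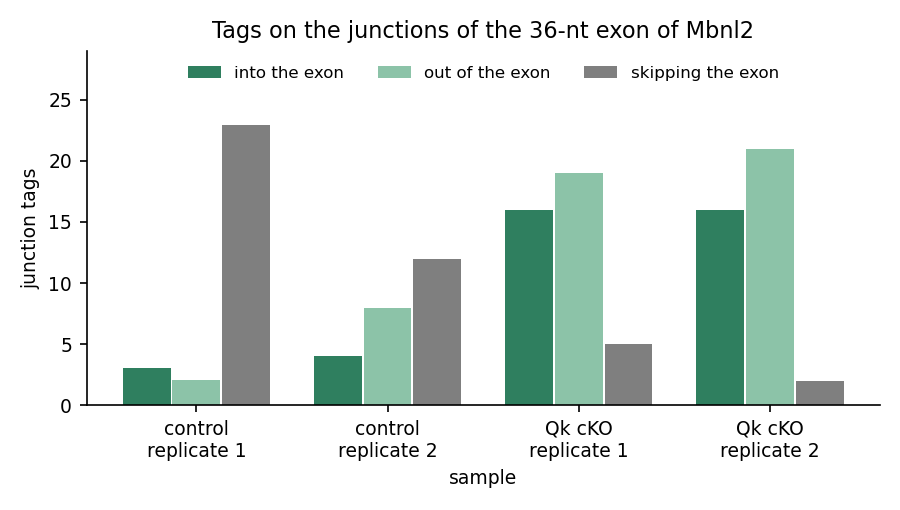
Tags on the 3 junctions of the 36-nt exon of *Mbnl2* in each sample, with the junction into the exon in dark green, the junction out of it in light green and the skipping junction in grey. The grey bar is the tallest in both control samples, at 22.9 and 12, and the shortest in both *Qk cKO* samples, at 5 and 2.

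Inclusion of this exon was 0.101 and 0.333 in control, and 0.778 and 0.902 in *Qk cKO*. The 95% Wilson intervals, which cover counting error only, ran from 0.0324 to 0.274 and from 0.163 to 0.563 in control, and from 0.573 to 0.901 and from 0.705 to 0.973 in *Qk cKO*. No interval of a control sample overlapped one of a *Qk cKO* sample. Δ*I* was -0.640 at a coverage of 41.9 (Fisher's exact test, p = 4.58e-08, adjusted p = 3.63e-06). In the edgeR interaction test the adjusted p was 0.146. The call held without control replicate 2 and without either *Qk cKO* replicate, with Δ*I* from -0.736 to -0.581. Without control replicate 1 the coverage fell under 20 and the event was not tested. The tag numbers were small at this level of *Mbnl2*, 2.21 to 2.53 RPKM.

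The other tested *Mbnl2* events involved the 95-nt exon downstream, whose length is no multiple of 3. Its inclusion was 0.774 and 0.846 in control and 0.892 and 0.698 in *Qk cKO* (Δ*I* 0.0240, Fisher's exact test adjusted p = 0.920). The upstream joining tags of this event, 22.9 and 12 in control and 5 and 2 in *Qk cKO*, are those that skip the 36-nt exon. Tags that reach the 95-nt exon through the 36-nt exon are not among them, so the event is not independent of the called one. The pair of the 36-nt and 95-nt exons, counted against skipping both, had an inclusion of 0.589 and 0.786 in control and 0.913 and 0.750 in *Qk cKO* (Δ*I* -0.140, adjusted p = 0.813). Both overlapped between the groups at a coverage of 20.

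*Mbnl1* gave no comparable test of its own 36-nt exon. Tags joining that exon to the 154-nt exon before it numbered 24.9 and 20 in control and 24.9 and 19 in *Qk cKO*. Its listed skipping form runs to the last exon and had 0 and 0 tags in control and 1 and 0 in *Qk cKO*, a coverage of 1. The 54-nt exon of *Mbnl1* at chr3:60614683-60614736 had an inclusion of 0.815 and 0.905 in control and 0.814 and 0.969 in *Qk cKO*, and its coverage of 13 left it untested. The only tested event of *Mbnl1* was a 111-nt coding exon at chr3:60596719-60596829. Its inclusion was 0.111 and 0.171 in control and 0.0864 and 0 in *Qk cKO* (Δ*I* 0.0831, Fisher's exact test p = 0.303). The 0 rests on 25 skipping tags, which allows a share of up to 12% when the limit is set at 3 tags, and the 95% Wilson interval reached 0.133.

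Of the 27 tested events of the Celf family 3 were called (11.1%), beside 7.50% of all tested events, and 2 of the 3 lay in 3′ UTRs. On junction tags alone, Fisher's exact test also called events of *Celf4*, described below, and another choice of acceptor in *Celf1*. That *Celf1* event had a Δ*I* of -0.0734 (adjusted p = 0.0888 in Fisher's exact test on junction tags). *Celf1*, on chromosome 2, has a donor at 91013402, after the last coding base at 91013362, that is spliced to an acceptor at 91013491 or to one at 91016566, 3075 nt further on. Inclusion of the proximal acceptor was 0.185 and 0.207 in control, and 0.290 and 0.361 in *Qk cKO*. The junction tags were 47.2 proximal to 208 distal and 64.2 to 246 in control, and 98.0 to 240 and 110 to 195 in *Qk cKO*. Both *Qk cKO* samples lay above both controls, with Δ*I* of -0.126 at a coverage of 319 (Fisher's exact test, p = 1.32e-06, adjusted p = 0.000583). The deposited isoform tags also hold reads from the body of the 3′ UTR, which 2 annotated transcripts cover without splicing, and on junction tags alone the p was 6.13e-07. In the edgeR interaction test the adjusted p was 0.631. Without control replicate 2 the event was not called (Δ*I* -0.138, adjusted p = 0.152).

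*Celf3* had a called retained intron of 199 nt at chr3:94486936-94487134, between coding exons of 142 and 150 nt. Its inclusion, counted as retention from averaged tags over both intron boundaries, was 0.0688 and 0.0473 in control and 0.107 and 0.120 in *Qk cKO*. Both *Qk cKO* samples were above both controls, with Δ*I* of -0.0559 at a coverage of 192 (Fisher's exact test, p = 3.29e-06, adjusted p = 0.000905). Spliced tags were thus the great majority in every sample. In whole tags, the 5′ boundary of the intron had 25 and 16 in control and 25 and 20 in *Qk cKO*. The 3′ boundary had 15 and 16 in control and 34 and 41 in *Qk cKO*. The higher count in *Qk cKO* thus lay mainly at the 3′ boundary, and Fisher's exact test used the sum of both. Whether the whole intron was retained was not tested. The edgeR interaction test gave an adjusted p of 0.683, and the Fisher call held without each of the 4 samples, with Δ*I* from -0.0658 to -0.0444.
The intron is shown whole, because its sequence sets what a retained copy would encode, with the first and last 2 bases, which are the splice sites, in capitals:
*Celf3* intron, chr3:94486936-94487134, plus strand: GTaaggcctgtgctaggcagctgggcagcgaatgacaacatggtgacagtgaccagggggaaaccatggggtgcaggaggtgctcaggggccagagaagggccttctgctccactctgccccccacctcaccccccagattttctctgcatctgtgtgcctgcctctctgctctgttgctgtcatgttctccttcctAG
Its length leaves a remainder of 1 when divided by 3. In the reading frame of the exon before it, 1 stop codon occurs in the intron, starting at its base 33.

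*Celf2* had a called retained intron of 1366 nt at chr2:6545676-6547041 on the minus strand, outside the coding sequence of every annotated transcript. Retention was 0.689 and 0.767 in control and 0.745 and 0.793 in *Qk cKO*, and the groups overlapped. Δ*I* was -0.0418 at a coverage of 797 (Fisher's exact test, p = 0.00389, adjusted p = 0.0879). In the edgeR interaction test the adjusted p was 0.762. Without control replicate 1, Δ*I* was -0.0031 and the event was not called, and without *Qk cKO* replicate 2 it was -0.0168 and not called either. With the replicate number as a stratum the adjusted p was 0.128.

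*Celf4*, on chromosome 18, had 8 tested events and none was called on isoform tags. Its event of highest coverage, 183, was a choice of donor with an inclusion of 0.180 and 0.125 in control and 0.206 and 0.191 in *Qk cKO* (Δ*I* -0.0486, Fisher's exact test adjusted p = 0.574). The Δ*I* of its 8 events ran from -0.191 to 0.122, and the groups did not overlap in 6 of them, beside 37.9% of all tested events.

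*Elavl2* had a called cassette exon, the 39-nt exon printed above, which extends the linker before the last RNA-recognition motif. It is counted in 2 events that differ in the acceptor of the last exon by 3 nt. With the downstream acceptor, inclusion was 0.751 and 0.783 in control and 0.846 and 0.815 in *Qk cKO*. Both *Qk cKO* values were above both control values, with Δ*I* of -0.0654 at a coverage of 248 (Fisher's exact test, p = 0.00876, adjusted p = 0.0952). With the upstream acceptor, inclusion was 0.847 and 0.809 in control and 0.875 and 0.834 in *Qk cKO*, which overlapped and was not called (Δ*I* -0.0285, adjusted p = 0.881). The call with the downstream acceptor lay close to the threshold. It was lost in the edgeR interaction test (adjusted p = 0.590), with the replicate number as a stratum (0.115), with a coverage minimum of 10 (0.114), with adjustment over all event types together (0.111), without control replicate 1 (Δ*I* -0.0488) and without *Qk cKO* replicate 1 (Δ*I* -0.0481).

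**Figure D5:**
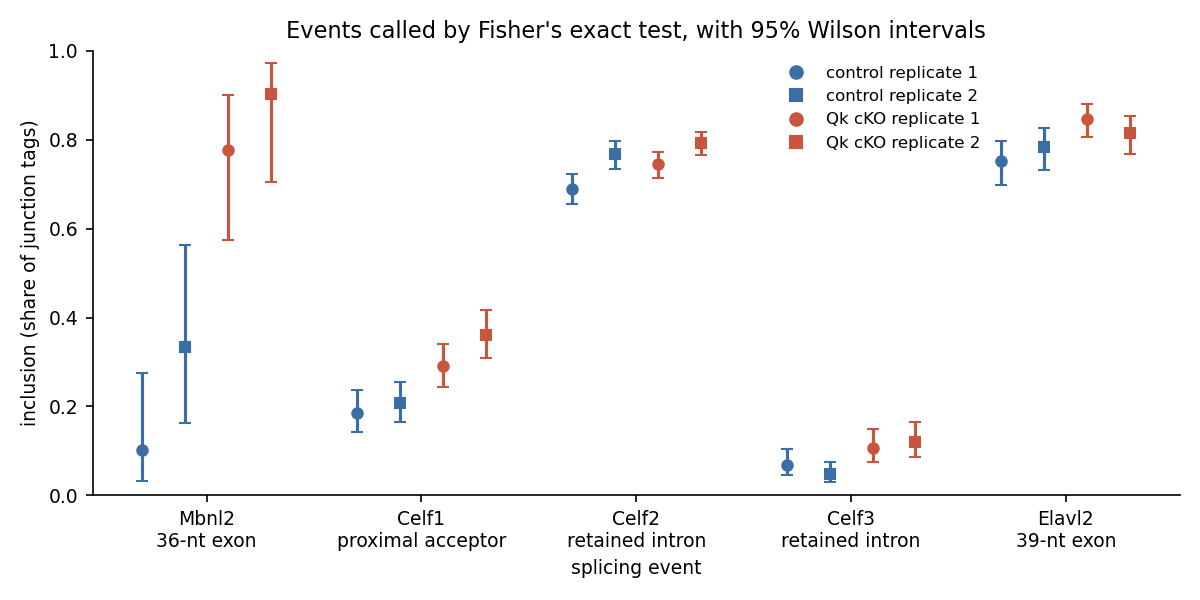
Inclusion of the 5 called events in each sample with 95% Wilson intervals, control in blue and *Qk cKO* in red, circles for replicate 1 and squares for replicate 2. The 36-nt exon of *Mbnl2* moves from 0.101 and 0.333 to 0.778 and 0.902, and the other 4 events move by 0.126 or less.

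*Elavl4* and *Elavl3* had no called event. The 39-nt exon of *Elavl4* was included at 0.922 and 0.915 in control and at 0.930 and 0.887 in *Qk cKO* (Δ*I* 0.00888, Fisher's exact test adjusted p = 0.937). The *Elavl4* event of highest coverage, 705, was a choice of acceptor after this exon, with an inclusion of 0.474 and 0.591 in control and 0.550 and 0.574 in *Qk cKO* (Δ*I* -0.0335, adjusted p = 0.743). The single tested event of *Elavl3*, also a choice of acceptor, had 0.844 and 0.901 in control and 0.866 and 0.893 in *Qk cKO* (Δ*I* -0.00694, adjusted p = 0.984). All 3 overlapped between the groups. An annotated gene, *Gm49318*, lies over the *Elavl3* event on the same strand, so its tags could come from either.

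Paralogous exons of equal length were compared with each other in 3 pairs of tested events, by Zelen's exact test of equal odds ratios on junction tags, two-sided, adjusted over the 3 pairs, with an adjusted p below 0.05 required. The *Elavl2* exon with the downstream acceptor had a log2 odds ratio of inclusion, *Qk cKO* over control, of 0.59 ± 0.20 (SE), and the *Elavl4* exon had -0.15 ± 0.28. Their difference was -0.75, with a 95% interval from -1.41 to -0.08 (Zelen's exact test, p = 0.0349, adjusted p = 0.105), and did not pass. With the upstream acceptor of *Elavl2* the difference was -0.44, with an interval from -1.19 to 0.31 (adjusted p = 0.287). The 144-nt coding exon of *Celf2* was included at 0.904 and 0.870 in control and at 0.887 and 0.870 in *Qk cKO*. The 144-nt exon of *Celf4* was included at 0.962 and 0.947 in control and at 0.940 and 0.888 in *Qk cKO*. Their log2 odds ratios were -0.12 ± 0.17 and -0.91 ± 0.50, a difference of -0.79 with an interval from -1.83 to 0.25 (adjusted p = 0.236). These intervals cover counting error only, and none of the 3 differences was established.

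Among the 13 tested cassette events of the members, 9 (69.2%) had exons whose length is a multiple of 3, beside 52.9% of the 4600 tested cassette events of all genes. The motif ACTAAC, a core of the Qki recognition element, was searched on the transcript strand in the last 2000 bases of the longest coding transcript of each gene. It occurred in that window in *Mbnl2* and in *Mbnl3*, 2 of the 10 members, and in 21.7% of 14197 genes with a transcript that long.

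Genes known as targets of the families from other tissues and ages were followed as 3 lists, of 22 Mbnl, 10 Celf and 10 neuronal Elavl targets, 37 genes in all because of shared entries. None of the 37 passed the test for a change in level, and 3 had an unadjusted p under 0.05 in edgeR, beside 8.76% of all genes. Their median log2 fold change was 0.01. Of their 93 tested splicing events, Fisher's exact test called 14, which were 9 of 73 for Mbnl, 5 of 22 for Celf and 1 of 8 for neuronal Elavl targets, with 1 *Mapt* event in 2 lists. The 14 are 15.1% of the 93, beside 7.50% of all tested events. The median size of Δ*I* over the 93 was 0.0216, beside 0.0256 over all tested events. The count fell to 6 without control replicate 1 and to 7 without *Qk cKO* replicate 1, and the edgeR interaction test called 1.

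That event was a 111-nt exon of *Dst*, which encodes a large linker of the cytoskeleton. Its inclusion was 0.304 and 0.268 in control and 0.0688 and 0.0965 in *Qk cKO* (Δ*I* 0.203, Fisher's exact test adjusted p = 5.16e-07, edgeR adjusted p = 0.0887). The 9 called events of Mbnl targets lay in 6 genes, among them *Foxp1*, a transcription factor, and *Clasp1*, a microtubule plus-end protein. Inclusion of the *Foxp1* acceptor was 0.523 and 0.623 in control and 0.689 and 0.738 in *Qk cKO* (Δ*I* -0.148). A *Clasp1* exon had 0.335 and 0.371 in control and 0.473 and 0.426 in *Qk cKO* (Δ*I* -0.0981). Another called *Clasp1* exon went the opposite way, with 0.880 and 0.918 in control and 0.821 and 0.860 in *Qk cKO* (Δ*I* 0.0584). The Celf targets with called events were *App*, the amyloid precursor, and *Mapt*, the microtubule-associated protein tau, with Δ*I* of at most 0.0262 and of 0.00617. The *App* events share junctions.

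The cells in the samples were followed with lists of markers, of which 9 genes passed the edgeR test, beside 0.584% of the 18834 genes tested. None of the 9 neuronal markers found in the files passed the test, with a summed level of 1484 and 1558 RPKM in control and 1481 and 1376 RPKM in *Qk cKO*. Of 10 markers of cortical progenitors 2 fell, *Fabp7* (log2 fold change -0.45) and *Slc1a3* (-0.23), which mark radial glia, and the median of the list was 0.01. The list summed to 1836 and 1687 RPKM in control and 1534 and 1474 RPKM in *Qk cKO*, and without *Fabp7*, its most abundant gene, to 847 and 786 RPKM in control and 832 and 807 RPKM in *Qk cKO*. Of 9 markers of hypothalamus and diencephalon 7 passed as lower, among them *Nr5a1* (-5.06) and *Six6* (-4.48), which mark the ventral hypothalamus. Both rested on few tags: *Nr5a1* had 36 and 97 in control and 2 and 2 in *Qk cKO*. *Six6* had 37 and 135 tags in control and 6 and 2 in *Qk cKO*. Their highest levels in any sample were 0.603 and 0.899 RPKM, and the control samples differed widely. Their list summed to 13.7 and 21.4 RPKM in control and 10.2 and 8.96 RPKM in *Qk cKO*. Most of its 9 genes, *Nr5a1* and *Six6* among them, and *Fabp7* are also in the paper's list of changed transcripts from these same samples. The marker lists were chosen with earlier results known, so the numbers that passed are no independent measure of the cells present. No marker gene found in the files was at 0 in all samples. No gene passed in the lists of intermediate progenitors (4 genes), interneurons and subpallium (6), erythroid cells (3), endothelium (4), meninges (4), microglia (4) and the oligodendrocyte lineage (4). Over the marker, target and other family genes together, the count of 9 became 1 with DESeq2 and 1 with filterByExpr. It also moved whichever sample was left out. In bulk tissue, fewer cells of a type and less RNA in each cell cannot be told apart. The part of tissue from outside the cortex in the member values was not tested.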

How the data were processed

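Libraries of poly-A selected RNA from 4 mouse cortices (TruSeq RNA v2, which does not keep strand) were sequenced as paired reads. The authors aligned the reads to mm10 with OLego and counted genes and 6 types of splicing event with Quantas. The deposited values are expected counts of tags for each gene and for each junction and isoform, which need not be whole, and RPKM per gene as deposited by the authors, which equals tags scaled to exon length and to the sample's total.

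Expected counts were rounded. All 18834 genes that had 1 tag or more in some sample were tested with edgeR 4.0.16 (R 4.3.3; quasi-likelihood, TMM scaling), and DESeq2 1.42.0 and edgeR's exact test were alternatives. Events with coverage of at least 20 were tested with Fisher's exact test on isoform tags summed over replicates, and with an edgeR interaction of isoform and genotype. Calls needed p below 0.01 and a Benjamini-Hochberg adjusted p below 0.1, within event type. Zelen's test compared paralogous exons. The edgeR tests of genes and events were tested on simulated data, and DESeq2 was not. The named genes were all members, every called event of a member, the best-covered event of a member without a call, every tested pair, and the called target events with the 3 largest Δ*I*, 1 per gene. The result for 1 target gene is not reported here. Of markers only called genes were named, at most 4 a list. Members and lists were chosen with earlier results of these data known. The search for a motif beside exons in introns was not run. Annotation was GENCODE M21 (GRCm38).

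The paper calls the replicates independent. With 2 samples a group, the edgeR p-values rest on a spread estimated from few samples, with information shared over all genes or events. Fisher's test leaves the spread between samples out.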

Additional observations from a re-analysis of the deposited data

How the results depend on the processing

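No member was called at gene level under any of the 9 alternatives. Of the splicing calls, the count of 5 became 0 in the edgeR interaction test, 2 when Δ*I* of at least 0.1 was asked for, 8 when Fisher's test used junction tags alone, and 3 under the replicate block, a Cochran-Mantel-Haenszel test, and ran from 3 to 4 when each sample was left out in turn. The target event count of 14 became 1 in the edgeR interaction test and ran from 6 to 12 with samples left out. The list gene count of 9 became 1 with DESeq2 and 1 with filterByExpr, and ran from 0 to 15 with samples left out. With samples left out, values changed sign for the log2 fold changes of *Celf4* (-0.129 to 0.0187), *Elavl3* (-0.101 to 0.00926), *Elavl4* (-0.0365 to 0.0614), *Mbnl1* (-0.00293 to 0.0468) and *Mbnl3* (-0.162 to 0.350). Among splicing events the same held for Δ*I* of the *Celf2* 144-nt exon (-0.0082 to 0.0255), the *Elavl3* acceptor (-0.0353 to 0.0216), the *Elavl4* acceptor (-0.0880 to 0.0298) and the *Elavl4* 39-nt exon (-0.0110 to 0.0314). The cause was not tested. None of the differences between paralogous exons reached an adjusted p below 0.05 under any alternative, the stratified block included, with adjusted p from 0.0710 to 0.847. The replicate numbers matched the sex of the embryos in both groups, so the replicate block is also a block by sex. The correlation of the replicate differences of the 2 groups was 0.41 over 12958 genes, -0.07 over the 12462 on autosomes and -0.01 over 11496 events. These values cannot show whether the numbers pair the samples in another way. The block called 0 members at gene level. DESeq2 gave no adjusted p for *Mbnl3*. The planned search for Qki motifs beside exons, with its 2 alternatives, was not run because it needs intron sequence. The tag numbers of *Mbnl2* and the 2 samples a group set the precision.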
